A study of Rattus norvegicus with 32 samples.

Results

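The genes that drive and restrain cell division and DNA replication were followed in 16 cultures of rat epithelial cells: 74 probe sets of 70 genes, out of 29215 probe sets on the array. They were chosen by gene symbol, as cyclins and cyclin-dependent kinases (Cdk) with their inhibitors, Cdc25 phosphatases, E2f factors and pocket proteins, minichromosome maintenance (Mcm) helicase subunits and the licensing factors that load them, enzymes of DNA synthesis, mitotic kinases and checkpoint proteins, and centromere proteins (Cenp). Cdkn1a was left out by that rule, which was set with earlier results of these data known. Tests ran over the 15310 probe sets that carried exactly 1 gene symbol, and 4 of the 70 genes (Ccnb2, E2f5, Rrm1 and Rrm2) had more than 1 probe set. Another 18 symbols that the rule names, Mki67, Mcm3, Mcm4, E2f2, E2f4 and Rbl1 among them, were not analysed here.

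The study set cultured thymic epithelial cells (TEC), which form the scaffold in which T cells mature, beside cultured cells of the hair follicle (HF), a skin appendage renewed by stem cells. All cells came from Sprague-Dawley rats that constitutively express enhanced green fluorescent protein (the strain SDTgN(act-EGFP)), and all cultures grew on irradiated 3T3-J2 feeder cells, a mouse fibroblast line. In the grafted groups the cells had been transplanted into skin carried by nude mice, recovered from the graft by dissection and trypsin, and grown again on feeder cells. Ungrafted TEC were 4 cultures, PRE16cl11_VII from embryonic day 16 (E16), PRP1cl11_VII from postnatal day 1 (P1), and PRP4mo_bulk and PRP4mo_Cl09 from rats aged 4 months. TEC after a first transplantation were Clone_217 and Clone_218 (E16), Clone_57 (P1) and Clone_907 (4 months). TEC after a second transplantation were Clone_287 and Clone_347 (E16), Clone_194 (P1) and Clone_354 (4 months). HF after a first transplantation were YR219P5_RC and Clone_54, and ungrafted HF were YR219P5_Bulk_V and YR219P5cl7, all 4 labelled P5 with no further explanation. A clonal culture descends from 1 cell, and 11 of the 16 cultures were clonal, while PRP4mo_bulk, Clone_907, Clone_354, YR219P5_Bulk_V and YR219P5_RC were labelled bulk. Each culture was hybridised to 2 arrays, which were averaged, so the culture is the replicate. The labels do not say whether cultures of a group came from separate animals, or which grafted culture descends from which earlier culture. The p-values measure only the spread between cultures.

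Signals are given on the log2 scale, on which a difference of 1 is a doubling, and every difference below is the mean of the group named first minus the mean of the group named second, with the standard error (SE) from limma. A difference was called where its adjusted p, by the Benjamini-Hochberg method over all 15310 probe sets, was under 0.05. The number of cultures limits the precision. Over these 74 probe sets the 2 arrays of a culture differed by a median of 0.0989, from 0.0549 in Clone_57 to 0.283 in Clone_347. Array medians lay between 5.287 and 5.554 except for the first array of YR219P5_RC at 5.782. Epithelial identity was plain in the keratin Krt14, at 12.95 to 13.35 in every culture, and the simple-epithelial keratin Krt8 (probe set 10751352) averaged 11.27 in ungrafted TEC against 6.89 in ungrafted HF. The thymic markers Isl1 and Pax9 were also higher in ungrafted TEC, by 2.78 ± 0.29 and 2.73 ± 0.47 (adjusted p = 0.0008429 and 0.0131), and Isl1 stayed higher in TEC than in grafted HF after a first transplantation (2.16, adjusted p = 0.01984) and after a second one (1.88, adjusted p = 0.03929). Foxn1, listed here with the thymic markers, lay between 5.13 and 6.15 in all 16 cultures and did not set TEC apart from HF. The leukocyte gene Ptprc and the T cell gene Cd3e stayed under 4, a level not taken as above background here.

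Cells enter division when mitogens raise the D-type cyclins, which with Cdk4 and Cdk6 phosphorylate the retinoblastoma protein Rb1 and so release E2f factors. E2f factors then turn on cyclin E and the genes of DNA replication, and later the Myb and Foxm1 complexes turn on the genes of mitosis. The Ink4 inhibitors Cdkn2a, Cdkn2b and Cdkn2c block Cdk4 and Cdk6, and the Cip/Kip inhibitors Cdkn1b and Cdkn1c block Cdk complexes more widely. Cultured keratinocytes and other epithelial cells are known to raise Cdkn2a as they approach senescence. In whole-culture RNA, fewer cells in a phase of the cycle and less RNA per cell cannot be told apart.

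Promoter sequences show how the members of 2 roles differ in the letters that cell cycle factors read. The window ran from 250 bases before to 50 bases after the start of each gene in RefSeq, on the rat build GRCr8, and 55 of the 70 genes had such a window. Searched on both strands were TTTGAA, the core of the cell cycle homology region (CHR) of mitotic genes, the E2f words TTTGGCGC, TTTCCCGC, TTTCGCGC and TTTGCCGC, and CCAAT. Capitals mark the matches, which read ATTGG where CCAAT lies on the other strand. Ccnb2 (chr8:79981609-79981908, minus strand) and Cdk1 (chr20:19265043-19265342, plus strand) are examples of the mitotic genes and Mcm5 (chr19:13488563-13488862, plus strand) of the licensing genes. Ccnb2 and Cdk1 had the most CHR cores of the mitotic windows and Mcm5 the most E2f words of the licensing windows, so they are not typical. Rb1 (chr15:54911808-54912107, minus strand), Ccnd3 (chr9:20897826-20898125, minus strand) and Cdc25b (chr3:138859923-138860222, plus strand) are shown because their signal passed the test between groups.
Ccnb2: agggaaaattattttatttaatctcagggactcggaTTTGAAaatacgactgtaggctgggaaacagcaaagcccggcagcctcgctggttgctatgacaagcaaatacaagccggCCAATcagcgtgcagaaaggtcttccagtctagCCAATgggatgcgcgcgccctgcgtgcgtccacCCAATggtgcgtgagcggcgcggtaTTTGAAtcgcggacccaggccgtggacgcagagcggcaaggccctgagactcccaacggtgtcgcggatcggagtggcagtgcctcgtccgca
Cdk1: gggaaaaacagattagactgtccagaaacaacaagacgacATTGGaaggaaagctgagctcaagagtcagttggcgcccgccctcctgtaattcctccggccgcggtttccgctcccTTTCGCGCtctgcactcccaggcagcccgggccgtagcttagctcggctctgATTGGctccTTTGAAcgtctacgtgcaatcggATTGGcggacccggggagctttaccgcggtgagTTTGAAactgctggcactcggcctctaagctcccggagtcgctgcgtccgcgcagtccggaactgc
Mcm5: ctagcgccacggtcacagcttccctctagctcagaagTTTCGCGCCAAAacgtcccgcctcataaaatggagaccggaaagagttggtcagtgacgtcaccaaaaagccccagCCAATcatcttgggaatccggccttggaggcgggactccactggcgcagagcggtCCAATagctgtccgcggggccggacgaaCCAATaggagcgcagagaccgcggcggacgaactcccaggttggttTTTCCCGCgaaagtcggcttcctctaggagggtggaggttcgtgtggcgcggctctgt
Rb1: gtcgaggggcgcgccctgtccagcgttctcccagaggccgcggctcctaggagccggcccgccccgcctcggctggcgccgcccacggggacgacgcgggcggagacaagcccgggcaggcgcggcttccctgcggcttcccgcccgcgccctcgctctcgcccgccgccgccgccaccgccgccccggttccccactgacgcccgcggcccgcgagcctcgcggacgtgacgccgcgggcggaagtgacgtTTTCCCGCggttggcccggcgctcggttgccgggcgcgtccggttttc
Ccnd3: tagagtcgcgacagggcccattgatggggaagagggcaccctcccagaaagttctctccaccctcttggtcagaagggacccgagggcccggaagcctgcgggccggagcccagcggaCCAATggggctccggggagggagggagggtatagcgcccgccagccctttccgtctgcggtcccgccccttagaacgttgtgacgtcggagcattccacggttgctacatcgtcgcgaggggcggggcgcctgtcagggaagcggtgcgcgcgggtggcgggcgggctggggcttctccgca
Cdc25b: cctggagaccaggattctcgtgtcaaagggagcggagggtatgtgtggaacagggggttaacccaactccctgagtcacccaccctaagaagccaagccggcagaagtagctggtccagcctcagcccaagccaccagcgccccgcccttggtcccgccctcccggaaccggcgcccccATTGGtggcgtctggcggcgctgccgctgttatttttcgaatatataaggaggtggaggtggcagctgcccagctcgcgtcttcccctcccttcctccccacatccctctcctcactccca

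The Ccnb2 window held 2 CHR cores and 3 CCAAT words, and that of Cdk1 held 2 CHR cores, 1 E2f word and 3 CCAAT words. In Mcm5 there were 3 E2f words, of which 2 on opposite strands overlapped, and 3 CCAAT words. The Rb1 window had 1 E2f word just after the gene's start, and those of Ccnd3 and Cdc25b had 1 CCAAT word each. Among 15 mitotic promoters 10 (66.7%) held the CHR core, against 18.3% of all 33469 promoters in the table. Among 10 licensing promoters 7 (70%) held an E2f word, against 2.14% of all promoters, and only 1 of the 15 mitotic promoters did, that of Cdk1. CCAAT was in 54.5% of the members' promoters and in 37.5% of all promoters. A match describes the letters of the window, not a site that is bound.

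The 74 probe sets varied more between cultures than most of the array. The median range of a member over the 16 cultures was 1.71, against 0.745 for all tested probe sets, and ranges ran from 0.35 for Cdk5, a kinase best known in neurons, to 6.65 for Cdkn2a. Single cultures carried much of this. PRE16cl11_VII was the lowest of all cultures for 36 of the 74 probe sets and YR219P5_RC the highest for 35. Clone_57 was the highest for 15 and Clone_347 the lowest for 13.

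**Figure D1:**
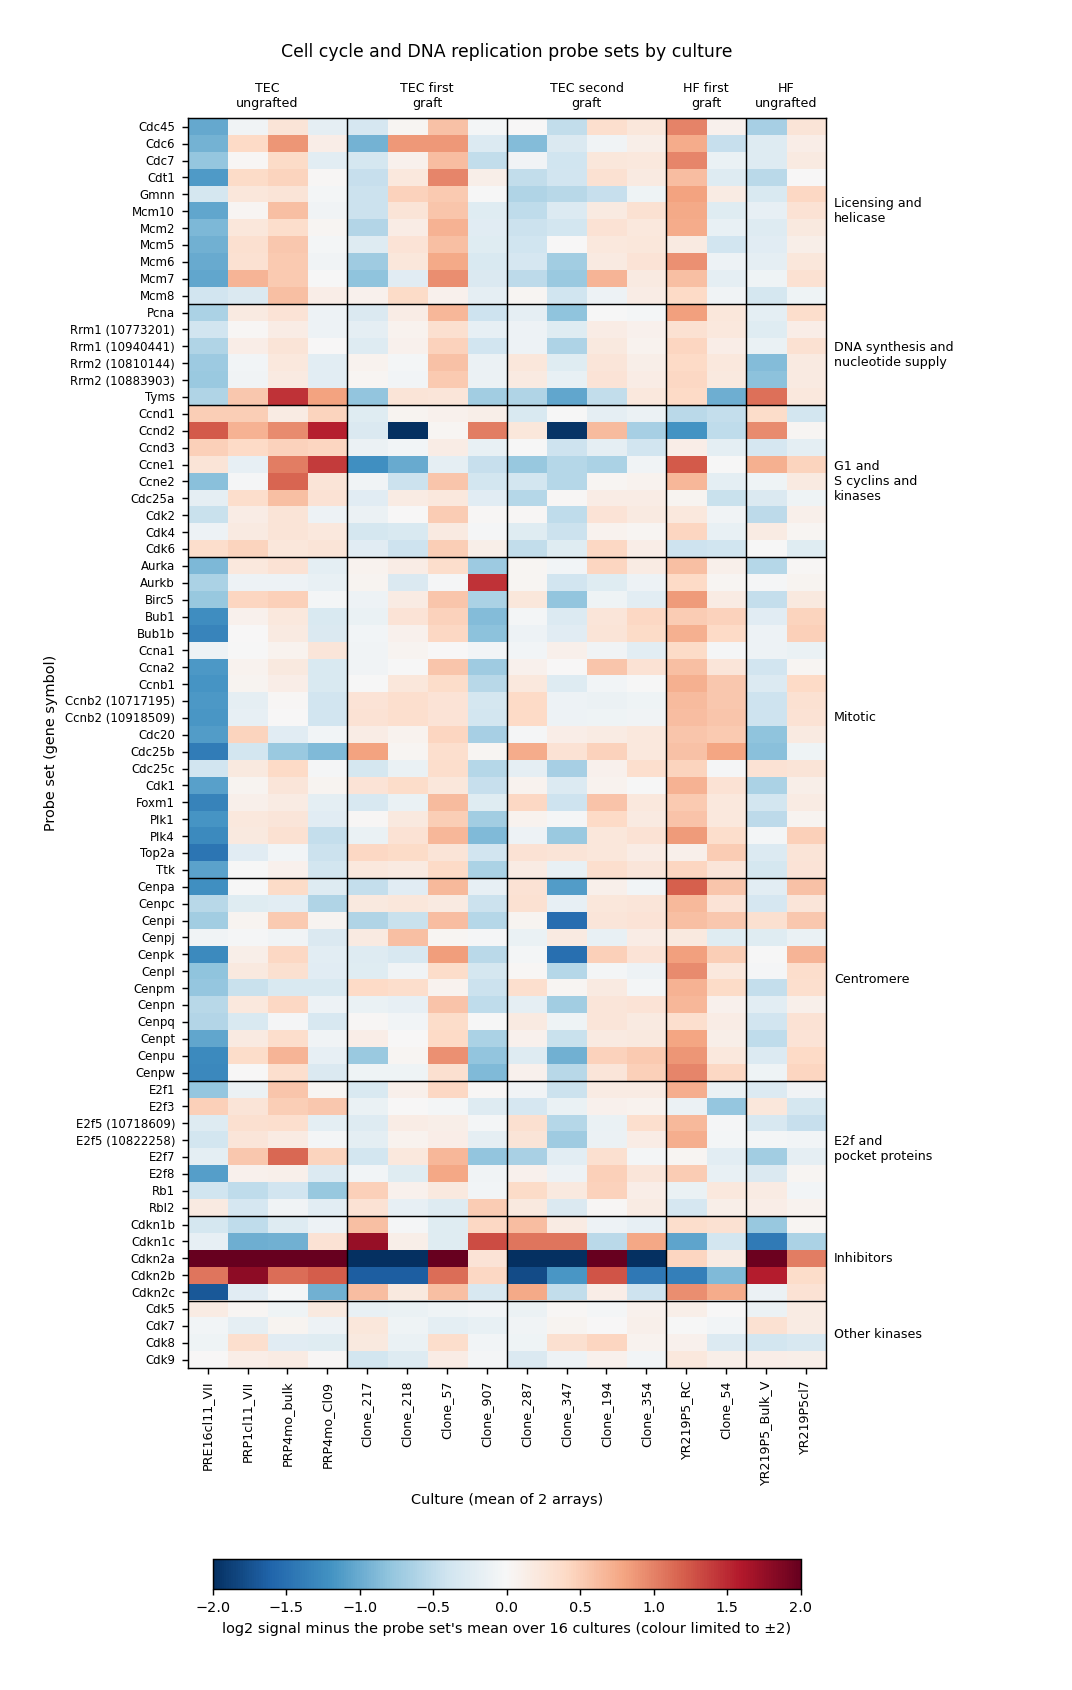
Log2 signal of each of the 74 probe sets (rows, grouped by role) in each of the 16 cultures (columns, grouped by tissue and transplantation), as the deviation from that probe set's mean over the cultures, with colour limited to 2 in either direction. PRE16cl11_VII is low through the licensing, mitotic and centromere rows, YR219P5_RC is high there, and Cdkn2a and Cdkn2b are low in 5 of the grafted TEC cultures.

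Proliferation genes moved together across cultures. The mean deviation of the 19 mitotic probe sets (Ccnb1, Plk1, Ttk, Bub1 and others) ran from -1.05 in PRE16cl11_VII to 0.57 in YR219P5_RC, and that of the 11 licensing and helicase probe sets from -0.87 to 0.70 in the same cultures. Across the 16 cultures the mitotic and centromere means had a Pearson r of 0.917, which was 0.881 without PRE16cl11_VII and Clone_907. For the licensing and mitotic means r was 0.751, and 0.506 without PRE16cl11_VII and YR219P5_RC. These correlations describe cultures that share arrays and normalization. By contrast, the 5 inhibitors had an r of -0.117 with the mitotic mean.

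The gene closest to the mitotic mean was Ttk, a kinase of the spindle checkpoint, with r of 0.967 over 16 cultures, followed by Ccnb1, the cyclin that partners Cdk1 at entry to mitosis, with 0.964. An r above 0.8 was found for 30 of the 74 probe sets (40.5%) and for 114 of the 15236 other tested probe sets (0.748%), with each mitotic probe set compared with the mean of the others. The 30 include 14 of the 19 mitotic probe sets, from which that mean was made. Outside the mitotic role, 8 of the 12 centromere probe sets passed that level. The inhibitor Cdkn2c followed the mitotic genes with r of 0.867, and cyclin D1 (Ccnd1) ran against them with r of -0.70. Of genes outside the list, the spindle motor Kif11 was the most alike with r of 0.977, then Tacc3, Depdc1b, Tpx2, Fam83d, Arhgap11a, Cep55, Fbxo5, Kif22 and Kifc1, of which the last had r of 0.943.

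Aurkb, the kinase of the chromosomal passenger complex, did not follow the other mitotic genes and had r of 0.061 with their mean. Its signal was 10.92 in Clone_907 and between 8.84 and 9.89 in the other 15 cultures. Both arrays of Clone_907 gave it, at 10.93 and 10.91, in a culture whose mitotic mean was -0.43. Aurkb was singled out after its values were seen.

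**Figure D2:**
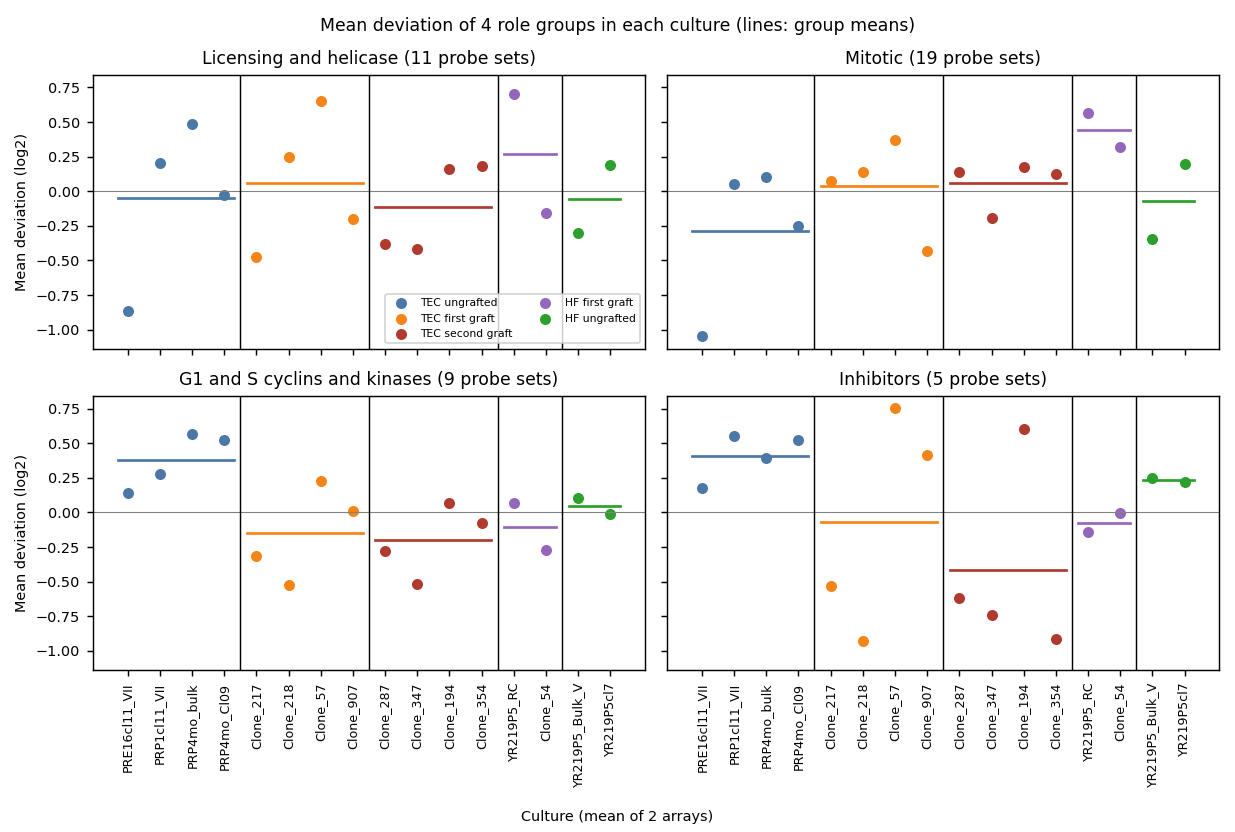
Mean deviation (log2) of the licensing, mitotic, G1 and S, and inhibitor probe sets in each culture, with a line at each group's mean. Mitotic means in ungrafted TEC spread from -1.05 in PRE16cl11_VII to 0.10 in PRP4mo_bulk, and the G1 and S means of all 4 ungrafted TEC cultures lie above 0.

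Transplanted TEC were compared with ungrafted TEC. Passage through skin cannot be told apart here from recovery of the cells and renewed culture. After a second transplantation 4 members changed, namely the D cyclins Ccnd3 and Ccnd1, which fell, and the pocket protein Rb1 and the phosphatase Cdc25b, which rose. After a first transplantation Rb1 and Cdc25b rose. Of all tested probe sets, 3.86% were called after a second transplantation and 0.516% after a first, so that 4 of 74 is a share close to that of the array and 2 of 74 a larger share than that of the array, though it rests on 2 probe sets. The calls of the second transplantation split evenly on the array, 1.93% higher and 1.93% lower, and those of the first were higher in 0.216%. Licensing, DNA synthesis and centromere probe sets included none that passed the test in either comparison.

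Ccnd3, a D cyclin that activates Cdk4 and Cdk6, had 9.04, 8.97, 9.03 and 8.99 in the ungrafted TEC cultures, 8.45, 8.50, 8.71 and 8.42 after a first transplantation, and 8.55, 8.15, 8.38 and 8.17 after a second. Every ungrafted culture lay above every grafted one, and the ungrafted values spanned less than 0.1. By limma the difference was -0.69 ± 0.11 (SE, 1.61-fold lower, adjusted p = 0.006042) after a second transplantation. After a first it was -0.49 ± 0.11 and did not pass the threshold (adjusted p = 0.06195).

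Rb1, which holds E2f factors inactive until Cdk4 and Cdk6 phosphorylate it, had 6.96, 6.86, 6.99 and 6.61 in ungrafted TEC. It had 7.85, 7.45, 7.57 and 7.32 after a first transplantation, and 7.76, 7.56, 7.83 and 7.51 after a second. Both grafted groups lay wholly above the ungrafted cultures. The rise was 0.69 ± 0.13 (SE, 1.62-fold, adjusted p = 0.03525 by limma) after a first transplantation and 0.81 ± 0.13 (1.75-fold, adjusted p = 0.008823) after a second.

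Cdc25b, a phosphatase that activates Cdk1 at the start of mitosis, had 6.96, 7.99, 7.61 and 7.47 in ungrafted TEC, with PRE16cl11_VII the lowest. The values were 9.17, 8.40, 8.70 and 8.39 after a first transplantation and 9.11, 8.65, 8.82 and 8.56 after a second, again without overlap. Cdc25b rose by 1.15 ± 0.24 (SE, 2.23-fold, adjusted p = 0.04957 by limma) after a first and by 1.28 ± 0.24 (2.43-fold, adjusted p = 0.01453) after a second transplantation. Cdc25a and Cdc25c, its relatives that act at the start of S phase and of mitosis, were not called in any comparison.

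Ccnd1, the most studied D cyclin and a target of mitogen signalling, had 12.53, 12.52, 12.20 and 12.47 in ungrafted TEC. It had 11.79, 12.09, 12.12 and 12.15 after a first transplantation and 11.73, 12.02, 11.85 and 11.92 after a second, all below the ungrafted cultures. Only the second transplantation was called for Ccnd1, at -0.55 ± 0.14 (SE, 1.46-fold lower, adjusted p = 0.04819 by limma), beside -0.39 ± 0.14 (adjusted p = 0.2177) after a first.

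The second-graft calls of Rb1, Cdc25b and Ccnd3 held when any of the 16 cultures was left out, and ended when only clonal cultures were fitted, which left 3 TEC cultures a group (adjusted p = 0.05978, 0.09746 and 0.0897 in that order, by limma); that of Rb1 also ended on the second arrays alone. The calls of Ccnd1 after a second transplantation and of Rb1 and Cdc25b after a first were fragile: they held in 3, 10 and 3 of the 16 fits that left out a culture, each ended with arrays centred, on the second arrays alone and in clonal cultures, and those of Ccnd1 and Cdc25b ended with donor stage in the model (adjusted p = 0.06605 and 0.05533).

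**Figure D3:**
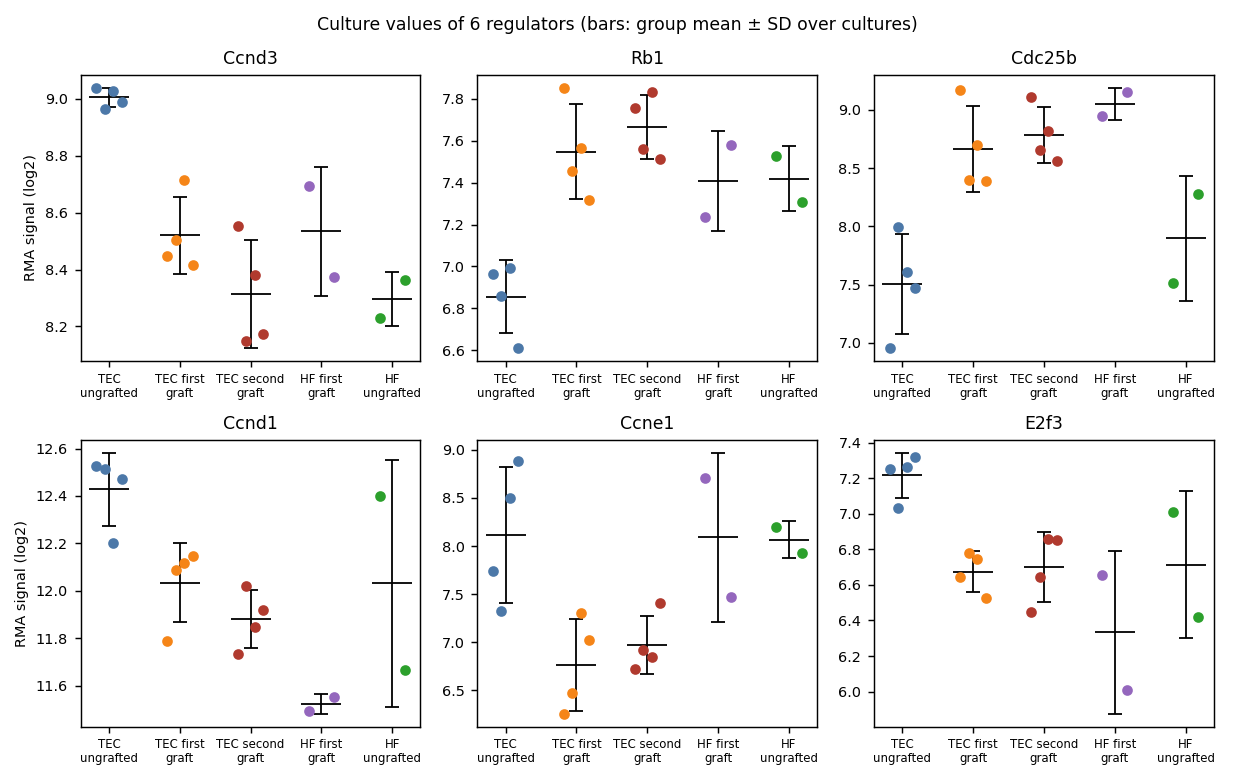
Log2 signal of Ccnd3, Rb1, Cdc25b, Ccnd1, Ccne1 and E2f3 in each culture (points), with the mean and SD over the cultures of each group (bars, n = 4 for each TEC group and n = 2 for each HF group). Each of the 6 genes has its ungrafted TEC cultures apart from those after a first transplantation, above them for Ccnd3, Ccnd1, Ccne1 and E2f3 and below them for Rb1 and Cdc25b.

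Cyclin E1 (Ccne1), which drives entry into S phase with Cdk2, had 7.74, 7.32, 8.50 and 8.88 in ungrafted TEC. It had 6.26, 6.47, 7.31 and 7.02 after a first transplantation and 6.72, 6.92, 6.85 and 7.41 after a second. The groups did not overlap for a first transplantation, by a margin of PRP1cl11_VII at 7.32 against Clone_57 at 7.31, and overlapped for a second. Differences of -1.35 ± 0.35 (adjusted p = 0.1095 by limma) and -1.14 ± 0.35 (adjusted p = 0.08463) did not pass the threshold. E2f3, an activating E2f factor, gave -0.54 ± 0.16 (adjusted p = 0.1315) and -0.52 ± 0.16 (adjusted p = 0.07842), without overlap in either comparison.

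Of the 9 G1 and S probe sets (Ccnd1, Ccnd2, Ccnd3, Ccne1, Ccne2, Cdc25a, Cdk2, Cdk4 and Cdk6), 8 were lower than in ungrafted TEC both after a first transplantation (median -0.32) and after a second (median -0.37). Both comparisons share the 4 ungrafted cultures. The median of all tested probe sets was 0.01 in each. Of the 19 mitotic probe sets 16 were higher in each comparison, with medians of 0.28 and 0.40, and 1 passed the test, Cdc25b. Without PRE16cl11_VII the direction over all 74 probe sets turned, as 23 instead of 50 were higher after a first transplantation (median -0.10 in place of 0.12) and 29 instead of 42 after a second (median -0.15 in place of 0.04).

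Unadjusted p values under 0.05 were found for 19 of 74 members (25.7%) after a first transplantation and for 15 (20.3%) after a second, against 14.8% and 19.6% of all tested probe sets. Groups did not overlap for 7 members (9.46%) after a first transplantation and for 9 (12.2%) after a second, where all tested probe sets had 7.95% and 11.8%. The share of unadjusted p values after a first transplantation was above that of the array, and the other 3 shares lay near it. Among members short of the threshold, Top2a, the topoisomerase that untangles chromosomes, gave 0.71 ± 0.26 and 0.77 ± 0.26 (adjusted p = 0.2333 and 0.1205 by limma). The thymidylate synthase gene Tyms gave -0.79 ± 0.44 and -1.03 ± 0.44 (adjusted p = 0.4337 and 0.214).

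The helicase subunit Mcm5 stands for the licensing genes, which differed little. It had 8.74, 10.02, 10.23 and 9.66 in ungrafted TEC, 9.45, 9.97, 10.30 and 9.46 after a first transplantation, and 9.30, 9.71, 9.91 and 9.93 after a second. The groups overlapped, and the differences were 0.13 ± 0.29 (adjusted p = 0.8945 by limma) and 0.05 ± 0.29 (adjusted p = 0.9551), with a 95% confidence interval for the second of -0.58 to 0.68. Ccnb1 had 9.31, 10.54, 10.63 and 10.18 in ungrafted TEC, 10.48, 10.72, 10.85 and 9.93 after a first transplantation, and 10.69, 10.23, 10.43 and 10.47 after a second. It overlapped between groups as well, with differences of 0.33 ± 0.27 and 0.29 ± 0.27 (adjusted p = 0.6288 and 0.6254).

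Further genes of S phase and mitosis had differences within the spread of the cultures. Cdk1, the kinase of mitotic entry, had 7.76, 8.89, 9.08 and 8.89 in ungrafted TEC, 9.11, 9.20, 9.07 and 8.38 after a first transplantation, and 8.91, 8.56, 8.91 and 8.83 after a second. PRE16cl11_VII was the lowest of all 16 cultures, and the differences were 0.28 ± 0.27 and 0.15 ± 0.27 (adjusted p = 0.6971 and 0.8433 by limma). Cyclin A2 (Ccna2), active in S phase and G2, gave 0.24 ± 0.29 and 0.53 ± 0.29 (adjusted p = 0.7776 and 0.3466), and Pcna, the sliding clamp of the replication fork, 0.10 ± 0.27 and -0.19 ± 0.27 (adjusted p = 0.9193 and 0.7729). Ccne2, the other cyclin E, gave -0.22 ± 0.35 and -0.34 ± 0.35 (adjusted p = 0.8506 and 0.6641), and Rbl2, a pocket protein of resting cells, 0.20 ± 0.18 and 0.13 ± 0.18 (adjusted p = 0.6665 and 0.7694).

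Mcm2, a further subunit of the helicase, gave 0.08 ± 0.32 and 0.00 ± 0.32 (adjusted p = 0.9488 and 0.9991 by limma), and Mcm8, which acts in repair, 0.08 ± 0.21 and -0.10 ± 0.21 (adjusted p = 0.9131 and 0.8632). Of the kinases that act mainly in transcription, Cdk7 gave 0.02 ± 0.10 and 0.09 ± 0.10, Cdk8 0.14 ± 0.16 and 0.24 ± 0.16, and Cdk9 -0.21 ± 0.11 and -0.18 ± 0.11, with adjusted p values between 0.3936 and 0.9682. None of these genes was called in any comparison. Among centromere proteins Cenpm, a subunit of the inner kinetochore, had 8.16, 8.49, 8.62 and 8.62 in ungrafted TEC, between 8.51 (Clone_907) and 9.33 after a first transplantation, and 9.26, 8.97, 9.11 and 8.89 after a second. Only Clone_907 overlapped with ungrafted TEC, yet the differences of 0.56 ± 0.20 and 0.59 ± 0.20 did not pass the threshold (adjusted p = 0.2197 and 0.1195 by limma). Cenpa, the histone H3 variant that marks centromeres, gave 0.22 ± 0.38 and 0.08 ± 0.38 (adjusted p = 0.8599 and 0.9479), with 6.09 in PRE16cl11_VII and 8.52 in YR219P5_RC at its ends. Cenpj, a centriole protein despite its name, gave 0.31 ± 0.14 and 0.12 ± 0.14 (adjusted p = 0.3222 and 0.7153). Signals of Ccna1, a cyclin of the male germ line, and of Cenpq were low, with means in ungrafted TEC of 4.66 and 4.43.

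Genes of the same pathways outside the list were counted as well. Of 35 probe sets of other replication genes and 34 of other mitosis genes, none was called after a first or a second transplantation, and 31 of the 34 mitosis probe sets were higher in each comparison, with medians of 0.38 and 0.36. At an unadjusted p under 0.05, 10 and 14 of those 34 were higher and none lower, where 7.21% and 9.80% of all tested probe sets were higher. These 34 were not counted without PRE16cl11_VII, the ungrafted culture with the lowest mitotic mean. Checkpoint and repair genes (14 probe sets), genes of the DREAM complex (5) and early mitogen response genes (9) had none called. Among 12 probe sets of growth arrest genes and p53 targets, 6 were higher and 6 lower in each comparison, with medians of 0.04 and -0.02. Of these, Ccng2, an atypical cyclin of resting cells, rose by 0.88 ± 0.18 (SE, adjusted p = 0.04957 by limma) after a first transplantation and by 0.88 ± 0.18 (adjusted p = 0.01969) after a second. Gadd45g, a stress-induced growth arrest gene, rose by 1.58 ± 0.32 (adjusted p = 0.04542) after a first.

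Markers of thymic epithelium and hair follicle, and part of the list for fibroblasts or feeder cells, moved with these comparisons. Thymic epithelium markers (12 probe sets) had a summed level of 12.18 to 12.95 in ungrafted TEC, 9.85 to 12.32 after a first transplantation and 9.79 to 11.83 after a second, and 10 of the 12 were lower in each comparison. Krt8 (probe set 10751352) fell by 2.09 and the pharyngeal pouch factor Pax1 by 1.30 after a second (adjusted p = 0.04819 and 0.04795 by limma). The other Krt8 probe set, 10907524, averaged 11.24 in ungrafted TEC and 9.01 after a second transplantation, and was not called. The summed level of fibroblast and feeder markers over 12 probe sets ranged from 10.91 to 11.75 in ungrafted TEC, from 10.02 to 10.87 after a first transplantation and from 9.43 to 11.02 after a second, and S100a4 and Twist1 fell by 1.70 and 1.21 after a second (adjusted p = 0.01341 and 0.01765 by limma). Of these 12 probe sets 2 stayed under 4 in all cultures, while Col1a1 lay between 6.58 and 7.23 and Vim between 6.85 and 11.81. After a second transplantation 10 of the 12 were lower, with a median of -0.27, and 2 were called. Vim averaged 10.43 in ungrafted TEC and 8.69 after a second, but Col1a1 averaged 6.95 and 6.94, and Pdgfrb 4.55 and 4.59. Twist1 averaged 7.24 in ungrafted TEC and 6.11 in ungrafted HF, which grew on the same feeder line. Hair follicle markers (5 probe sets) had a summed level of 8.09 to 9.37 after a first transplantation and 8.36 to 9.65 after a second, above the 7.42 to 7.75 of ungrafted TEC, and the vitamin D receptor Vdr rose by 1.66 after a second (adjusted p = 0.01238). The sum of the 7 haematopoietic probe sets lay between 6.47 and 6.84 in every group, with 4 under 4 throughout. The part of feeder cells and of thymic or follicle character in the cell cycle values was not tested.

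The inhibitor Cdkn2a, which encodes the Cdk4 and Cdk6 inhibitor of the Ink4 family and, from another reading frame, the p53 activator Arf, had the widest range of the list. It had 9.79, 10.44, 9.88 and 9.94 in ungrafted TEC. After a first transplantation it had 3.79 in Clone_217, 4.49 in Clone_218, 10.29 in Clone_57 and 8.04 in Clone_907, and after a second 4.05 in Clone_287, 4.48 in Clone_347, 10.05 in Clone_194 and 4.43 in Clone_354. All 4 grafted E16 cultures and the 4-month culture Clone_354 were low, and both grafted P1 cultures were as high as ungrafted TEC. The low values are means of arrays that lay around the level of 4. Their 2 arrays gave 3.88 and 3.70 in Clone_217, 4.13 and 4.85 in Clone_218, and 4.59 and 3.50 in Clone_287. They gave 3.60 and 5.36 in Clone_347 and 3.78 and 5.07 in Clone_354. HF had 8.20 and 7.94 after a first transplantation and 9.73 and 8.80 ungrafted.

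On average Cdkn2a differed by -3.36 ± 1.40 (SE, adjusted p = 0.2823 by limma) after a first transplantation and by -4.26 ± 1.40 (adjusted p = 0.105) after a second, the lowest difference of all 15310 probe sets in the comparison after a second. Neither passed the threshold, since the grafted cultures spread with an SD of 3.06 and 2.87 against 0.29 in ungrafted TEC. The difference after a second transplantation was called without Clone_194 (-5.69) and with donor stage in the model (-3.83).

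Cdkn2b, the neighbouring Ink4 gene, was low in the same 5 TEC cultures, at 6.05 in Clone_217, 6.04 in Clone_218, 5.91 in Clone_287, 6.53 in Clone_347 and 6.26 in Clone_354. In the other TEC cultures it had 8.81 in Clone_57, 8.11 in Clone_907, 8.95 in Clone_194, and 8.76, 9.48, 8.82 and 8.91 ungrafted. HF after a first transplantation had 6.32 and 6.81, against 9.26 and 8.06 in ungrafted HF, and neither the difference of Cdkn2b in HF (-2.09 ± 0.98, adjusted p = 0.5616 by limma) nor that of Cdkn2a (-1.19 ± 1.98, adjusted p = 0.8447) was called. The differences in TEC were -1.74 ± 0.69 (adjusted p = 0.257 by limma) and -2.08 ± 0.69 (adjusted p = 0.1076). As for Cdkn2a, the difference after a second transplantation was called with donor stage in the model (-1.87, adjusted p = 0.03163) and without Clone_194 (-2.76, adjusted p = 0.04099).

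Among measured genes of that chromosome region in GRCr8, Mtap, a purine salvage enzyme that lies 3 genes from Cdkn2a, was also lowest in those 5 TEC cultures, between 5.49 and 6.36. Clone_907 had 6.53 and PRE16cl11_VII 6.77, and the other 9 cultures lay between 7.31 and 8.47. Klhl9, which lies 25 genes away, lay between 9.57 and 10.32 in all cultures. Over the 16 cultures Pearson r with Cdkn2a was 0.913 for Cdkn2b, 0.887 for Mtap, 0.803 for Elavl2, which lies 20 genes away on the side of Cdkn2b, and -0.019 for Klhl9. Elavl2 itself was near or under the level of 4, at 2.89 to 5.09. Dmrta1 and Zfp352, which lie between Cdkn2b and Elavl2, had r of 0.216 and 0.041 at signals of 3.38 to 4.26 and 3.59 to 4.33, and Ifna5, beyond Klhl9, had 0.074. These are descriptions of cultures that share a stage or a graft, and the neighbouring genes other than Cdkn2b were added after the values of Cdkn2a had been seen.

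**Figure D4:**
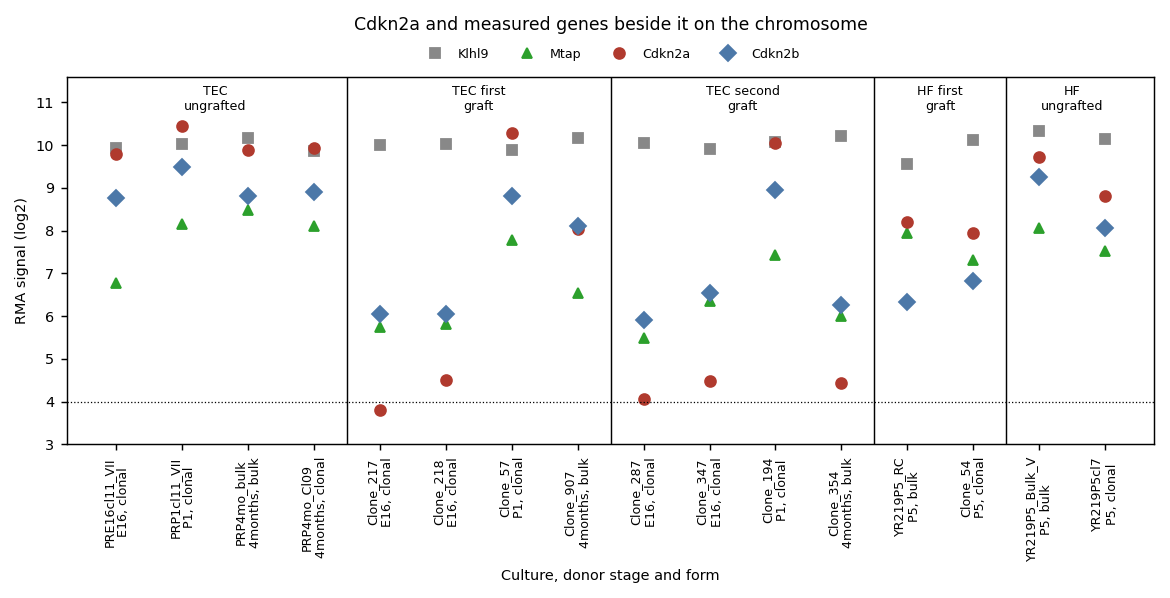
Log2 signal of Klhl9, Mtap, Cdkn2a and Cdkn2b in each culture, labelled with donor stage and form. The dotted line marks the signal of 4 below which a value was not taken as above background. Cdkn2a is at 3.79 to 4.49 and Cdkn2b at 5.91 to 6.53 in Clone_217, Clone_218, Clone_287, Clone_347 and Clone_354, while Klhl9 stays between 9.57 and 10.32.

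The remaining inhibitors did not share that pattern. Cdkn1c, the imprinted Cip/Kip inhibitor, had 8.41, 7.61, 7.62 and 8.86 in ungrafted TEC, 10.33, 8.69, 8.34 and 9.88 after a first transplantation, and 9.64, 9.66, 8.04 and 9.35 after a second, with overlap. Its differences were 1.18 ± 0.48 (adjusted p = 0.2644 by limma) and 1.05 ± 0.48 (adjusted p = 0.242). Cdkn2c gave 1.01 ± 0.36 (adjusted p = 0.2099) and 0.73 ± 0.36 (adjusted p = 0.2858), and Cdkn1b 0.50 ± 0.22 (adjusted p = 0.3031) and 0.44 ± 0.22 (adjusted p = 0.293).

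Cyclin D2 (Ccnd2) had the next widest range. It had 11.82, 11.28, 11.53 and 12.14 in ungrafted TEC, 10.31, 7.88, 10.63 and 11.61 after a first transplantation, and 10.82, 8.63, 11.23 and 9.92 after a second. Clone_218 and Clone_347, both E16 clones, stood lowest, and all other cultures lay between 9.40 and 12.14. The differences of -1.59 ± 0.68 and -1.54 ± 0.68 did not pass the test (adjusted p = 0.297 and 0.2257 by limma).

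A second transplantation set against a first gave no called probe set at all, on the list or off it (0% of 15310), in limma at an adjusted p under 0.05. At an unadjusted p under 0.05 there was 1 member (1.35%), against 3.47% of all tested probe sets, and no member had groups that did not overlap, against 1.40%. That member was Gmnn, geminin, which blocks relicensing by binding Cdt1. It had 8.61, 8.66, 8.75 and 9.12 after a second transplantation, against 8.78, 9.67, 9.73 and 9.20 after a first, a difference of -0.56 ± 0.24 (adjusted p = 1). Of the 74 members 45 were lower after a second transplantation, with a median of -0.04.

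Before grafting, TEC and HF cultures differed in 1 member, Ccnd3, where 1.55% of all tested probe sets were called and 0.967% were called higher in TEC. Ccnd3 had 9.04, 8.97, 9.03 and 8.99 in ungrafted TEC, against 8.23 and 8.36 in ungrafted HF, without overlap. It was 0.71 ± 0.13 higher in TEC (SE, 1.64-fold, adjusted p = 0.01752 by limma). That call ended without YR219P5_Bulk_V (0.64, adjusted p = 0.2267) and with clonal cultures only, either of which leaves 1 HF culture ungrafted whose spread is taken from the other groups.

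All 9 G1 and S probe sets were higher in ungrafted TEC than in ungrafted HF (median 0.39), whereas 14 of 19 mitotic and 10 of 12 centromere probe sets were lower (medians -0.27 and -0.33). Rb1 was 0.56 ± 0.16 lower in TEC and did not pass the threshold (adjusted p = 0.1125 by limma), with 6.61 to 6.99 in TEC, against 7.53 and 7.31 in HF. Groups did not overlap for 9 of 74 members (12.2%), against 25.8% of all tested probe sets, and an unadjusted p under 0.05 was found for 6 members (8.11%), against 13.5%. The balance of directions over all members varied with the fit. Without PRE16cl11_VII 50 instead of 33 of the 74 members were higher in TEC (median 0.16 in place of -0.03). With arrays centred on their medians 39 were (median 0.01). In clonal cultures 17 were (median -0.41), but that fit left YR219P5cl7 as the only ungrafted HF culture. Culture form cannot be told apart from that single culture there.

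HF after a first transplantation was compared with ungrafted HF, 2 cultures against 2, and no member was called by limma, nor any other probe set (0%). Of the 74 members 61 (82.4%) were higher after transplantation with a median of 0.36. Of all tested probe sets 69.1% were higher, with a median of 0.10. All 12 centromere and 18 of 19 mitotic probe sets were higher. Groups did not overlap for 30 members (40.5%), against 41.4% of all tested probe sets, and an unadjusted p under 0.05 was found for 4 (5.41%), against 8.84%. Both shares were no higher than those of the array.

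Cdc25b had the smallest p of the members in HF, with 8.95 and 9.15 after transplantation, against 7.51 and 8.28 before. The difference of 1.15 ± 0.33 (adjusted p = 0.5616 by limma) was set against that of TEC in the interaction of tissue and graft, which gave 0.00 ± 0.41 (95% confidence interval -0.87 to 0.88). Ccnd1 had 11.50 and 11.55 after transplantation, against 12.40 and 11.67 ungrafted, a difference of -0.51 ± 0.20 (adjusted p = 0.5616), which was called without YR219P5cl7. Without YR219P5_RC 50 of 74 members were higher (median 0.13), and with clonal cultures alone, 1 on each side, 28 were (median -0.05). The first array of YR219P5_RC had the highest median of the 32, and with arrays centred on their medians 57 members were higher (median 0.27).

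The effect of a first transplantation was next compared between TEC and HF in the interaction of tissue and graft, in which no probe set was called (0%). Ccnd3 had the smallest p of the members, as the change in TEC minus that in HF was -0.72 ± 0.18 (adjusted p = 0.731 by limma), with -0.49 in TEC and 0.24 in HF. Rb1 followed with 0.70 ± 0.23 (adjusted p = 0.8263 by limma). An unadjusted p under 0.05 was found for 3 members (4.05%), against 5.66% of all tested probe sets. The median over members was -0.23, beside -0.10 for all tested probe sets, and the members' median was 0.48 with clonal cultures only.

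Grafted TEC set beside HF after a first transplantation gave no called member after a first transplantation of TEC, where 0.0718% of all tested probe sets were called, and none after a second, where 0.0457% were. Both comparisons share the same 2 HF cultures. Members lay lower in TEC, 57 of 74 after a first (median -0.31) and 61 of 74 after a second transplantation (median -0.31), where all tested probe sets had medians of -0.11 in each. Of the 15310 tested probe sets 10210 and 10080 were lower in TEC. With arrays centred on their medians the members' median was -0.17 in each, beside 0.03 for all tested probe sets. Without YR219P5_RC it was -0.10 and -0.07, and in clonal cultures 38 of 74 members were higher in TEC after a first transplantation, as were 23 after a second.

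All 19 mitotic probe sets were lower in TEC after a second transplantation than in grafted HF (median -0.39), and 18 of 19 after a first (median -0.39). Groups did not overlap for 19 members (25.7%), against 24.7% of all tested probe sets, in the comparison after a second transplantation, and for 12 (16.2%), against 25.5%, in that after a first. Unadjusted p values under 0.05 came from 6 members (8.11%) and from 4 (5.41%), where all tested probe sets had 21.0% and 17.0%. Ccne1 had 6.72, 6.92, 6.85 and 7.41 in TEC after a second transplantation, against 8.71 and 7.47 in grafted HF, a difference of -1.12 ± 0.43 (adjusted p = 0.1774 by limma) and, after a first, of -1.33 ± 0.43 (adjusted p = 0.2022). Cdkn1c ran the other way, higher in TEC by 1.44 ± 0.58 after a first transplantation (adjusted p = 0.2512) and by 1.30 ± 0.58 after a second (adjusted p = 0.2238).

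**Figure D5:**
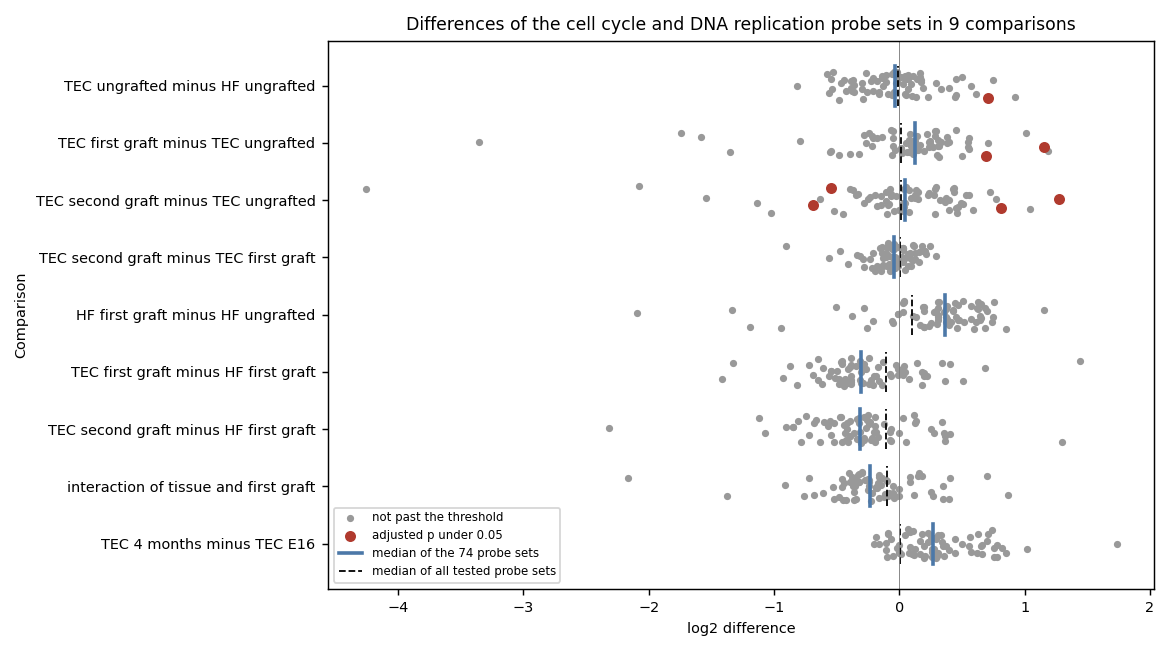
Log2 difference of each of the 74 probe sets in the 9 comparisons (points, red where the adjusted p was under 0.05), with the median of the 74 (blue line) and of all 15310 tested probe sets (dashed line). Red points number 1, 2 and 4 in the top 3 comparisons and 0 elsewhere, and the members' median is 0.36 in HF after transplantation and 0.27 in TEC at 4 months over E16.

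Donor age was compared within TEC, 4 cultures from rats of 4 months against 5 from E16, with transplantation state in the model. Age and culture form cannot be told apart here, since 3 of the 4 cultures from 4 months were bulk and all 5 from E16 clonal. With the 1 clonal culture of 4 months alone, PRP4mo_Cl09, 66 members were higher (median 0.44). That culture was ungrafted, and the only ungrafted E16 culture was PRE16cl11_VII, the lowest of all cultures for 36 members. No member was called, where 0.0914% of all tested probe sets were, yet 60 of 74 members were higher at 4 months with a median of 0.27 where that of all tested probe sets was 0.003. An unadjusted p under 0.05 was found for 15 members (20.3%), all of them higher, against 11.1% of all tested probe sets and 6.24% in that direction. All 11 licensing probe sets, all 6 of DNA synthesis and 8 of 9 of the G1 and S group were higher, with medians of 0.57, 0.28 and 0.35, and 6 of the 11 licensing probe sets had an unadjusted p under 0.05. Of the other replication genes all 35 probe sets were higher as well, 8 of them with an unadjusted p under 0.05 and none called. P1 cultures, between these stages, had mean licensing deviations of 0.20 (PRP1cl11_VII), 0.65 (Clone_57) and 0.16 (Clone_194). Those of 4 months had 0.49, -0.03, -0.20 and 0.18, and those of E16 -0.87, -0.48, 0.25, -0.38 and -0.42. The P1 values lay within or above the range of 4 months, and a steady change with age was not tested.

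Cdk4, the kinase partner of the D cyclins, had the smallest p of the members for age. It had 11.46, 11.42, 11.18 and 11.25 in the 4-month cultures, against 11.11, 10.85, 10.90, 10.96 and 10.77 in the E16 cultures, without overlap. The difference was 0.35 ± 0.08 (SE, adjusted p = 0.1468 by limma). Mcm7, a helicase subunit, had 10.11, 9.58, 9.30 and 9.76 at 4 months, against 8.55, 8.79, 9.36, 9.07 and 8.84 at E16, a difference of 0.78 ± 0.20 (adjusted p = 0.2254) with 1 pair of cultures in overlap. The licensing factor Cdt1 gave 0.74 ± 0.21 (adjusted p = 0.2692), Ccne1 0.82 ± 0.23 (adjusted p = 0.2667) and E2f1, the E2f factor best known for driving S phase, 0.56 ± 0.19 (adjusted p = 0.3322). Without PRE16cl11_VII, the lowest culture for 36 members, 47 members were higher at 4 months and the median was 0.13.

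Duplicate probe sets gave like differences for Ccnb2 (0.56 and 0.55 after a first transplantation of TEC), for Rrm2, the small subunit of ribonucleotide reductase (0.31 and 0.32), and for E2f5 (-0.06 and -0.05). For Rrm1, the large subunit, probe set 10773201 lay between 3.48 and 4.17 in all cultures, around the level not taken as above background, and gave 0.08, while probe set 10940441 gave 0.02.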

How the data were processed

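Total RNA of each culture was amplified, labelled with biotin by a whole transcript sense target protocol and hybridised to Affymetrix rat gene arrays, per the labels' protocols. The authors deposited log2 signals per probe set. Per the submitters' processing notes, RMA was run in Affymetrix's Expression Console; the software version, background setting and annotation release are not given in the sources used here. No value was transformed again.

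The 2 arrays of a culture were averaged, and limma 3.58.1 in R 4.3.3 (lmFit, eBayes) was fitted to the 16 culture means of all 15310 probe sets with 1 gene symbol, with the 5 groups sharing one estimate of spread. Donor stage was compared within the 12 TEC cultures. P-values were adjusted by the Benjamini-Hochberg method within each comparison, with a threshold of 0.05. No filter on level was applied, and a signal under 4 was not taken as above background, a limit set with the values in view. The fit was tested on simulated data.

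Groups and stages came from the labels. Members and lists were chosen with earlier results of these data known, so counts over them are descriptions. Named were members past the threshold, the 8 with the widest range, the members with the highest and lowest mean of each role, a panel of 22 genes (21 measured), up to 4 genes of each other list past the threshold, and the 10 most alike non-members. In comparisons with no call, some of the members with the smallest p were named too, not always in both directions. Members named beyond this rule, such as Aurkb, Cdt1, E2f3, Plk1 and Ttk, were picked with their values in view. Roles were assigned by hand. Promoters and gene order are from RefSeq, build GRCr8. Alternatives were centring, quantile normalization, the samples and arrays fitted, a random block for culture, donor stage, clonal cultures, a filter at a mean of 5, robust eBayes and leaving out each culture; leaving out the first array of YR219P5_RC was chosen after seeing the data.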

Additional observations from a re-analysis of the deposited data

Results flagged for a closer look

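Among 117 groups of 4 cultures examined, 5 held a value further from the rest of the group than Dixon's limit for 4 values. Chance alone flags about 1 in 20 groups, so the number of flags is no more than chance gives. The groups share cultures, and that number does not decide whether any single flag is chance. Ccnd1 was lowest of ungrafted TEC in PRP4mo_bulk at 12.2 and lowest of TEC after a first transplantation in Clone_217 at 11.79. Cdk1 was lowest of TEC after a first transplantation in Clone_907 at 8.38 and lowest of ungrafted TEC in PRE16cl11_VII at 7.76. Cdkn2a was highest of TEC after a second transplantation in Clone_194 at 10.05, where the other 3 cultures had 4.05, 4.48 and 4.43.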

How the results depend on the processing

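With arrays in place of culture means and culture as a random block (consensus correlation of the arrays of a culture 0.4924), the members called rose to 14 of 74 in TEC after a first transplantation (2 with culture means) and 13 after a second (4), to 1 in HF after transplantation, 2 and 3 in TEC after a first and a second transplantation against grafted HF, 1 in the interaction and 8 for donor age (0 in each with culture means). Over all tested probe sets that setting called 1183 against 79, and 2070 against 591, in the grafted TEC comparisons. Clonal cultures only gave 0 called members in each of the 3 comparisons that had any. After a first transplantation the count was 0 with arrays centred, with only the compared groups fitted, on the second arrays alone and without the first array of YR219P5_RC, and 1 with donor stage in the model; after a second it was 2 on the second arrays. Donor stage ended the calls of Cdc25b (first) and Ccnd1 (second) and gained those of Cdkn2a and Cdkn2b (second). Ungrafted TEC against HF gave 2 on the first arrays. Leaving out 1 culture at a time gave 0 to 1 for ungrafted TEC against HF (0 without YR219P5_Bulk_V), 0 to 2 for a first transplantation, 3 to 5 for a second, 0 to 1 for HF (1 without YR219P5cl7), and 0 in the other 5 comparisons. No member was called for a second against a first transplantation under any alternative. Of single-gene values 5 turned in sign, all uncalled: Ccne1 in ungrafted TEC minus HF (0.05) was -0.0872 with donor stage, -0.08 without PRP4mo_bulk, -0.21 without PRP4mo_Cl09 and -0.09 without YR219P5cl7 (range -0.21 to 0.31 over left-out cultures), and Cdkn2b (0.33) was -0.27 without YR219P5cl7 (range -0.27 to 0.93); 730 kept direction and call, 19 gained a call and 56 lost one. The cause was not tested, except that fits on fewer cultures have fewer samples. No paired analysis was possible because rep1 and rep2 number the 2 arrays of 1 culture and culture numbers were given in accession order; donor stage, which the TEC groups share, was fitted as a term instead. Signal near background limits Rrm1 (probe set 10773201), Ccna1 and the low Cdkn2a values, whose folds are then compressed.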
